A study of Mus musculus with 12 samples.

Results

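The genes described here encode the enzymes that hydroxylate collagen on proline and lysine and the enzymes that oxidise lysine for cross-linking. They were taken by gene symbol and comprise P4ha1, P4ha2 and P4ha3, Plod1, Plod2 and Plod3, and Lox, Loxl1, Loxl2 and Loxl3. These are 10 of the 48709 gene IDs in the count tables, each symbol matched a single Ensembl ID, and all 10 passed the filter on low counts that left 14408 genes for testing. RNA sequencing counted reads per gene in 12 libraries of mouse embryonic fibroblasts (MEFs) of the C57BL/6 strain. The question of the series is how fibroblasts without tafazzin, which remodels the mitochondrial membrane lipid cardiolipin, differ from isogenic wild-type cells in low oxygen. WT and TAZKo cells were each sampled in normoxia and after hypoxia lasting 24 hours, which gave 4 groups of 3 libraries. Every group was grown in DMEM with fetal bovine serum, and TAZKo stands for cells lacking tafazzin. How the deletion was made, the number of clones or embryos behind a genotype, the oxygen level and whether the libraries of a group came from separate cultures are not given in the sources used here. The p-values therefore measure the spread between these libraries, which may be technical, and a genotype may stand for a single line.

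Collagen chains are modified inside the endoplasmic reticulum before they fold into a triple helix. Prolyl 4-hydroxylases, tetramers of a catalytic alpha subunit encoded by a P4ha gene and the beta subunit P4hb, make the hydroxyproline that keeps the helix stable at body temperature. Lysyl hydroxylases of the Plod family make hydroxylysine, which carries sugars and feeds the more stable kinds of cross-link. Both families are dioxygenases that use oxygen, iron, 2-oxoglutarate and ascorbate. Lysyl oxidases are secreted copper enzymes that use oxygen to convert lysine and hydroxylysine into the aldehydes from which cross-links of collagen and elastin form. In fibroblasts several of these genes are known targets of the hypoxia-inducible transcription factors.

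Levels are given as CPM, the count of a gene relative to its library total, with libraries put on a common scale by TMM (a trimmed mean of log ratios). Levels of different genes are compared as CPM per kb of annotated exon. Total counts per library ran from 21039451 to 31204510, and 3 counts were worth 0.0927 to 0.15 CPM. The targeted gene Taz was not lower in the libraries labelled TAZKo. Its level was 34.6 ± 2.92 CPM in WT and 42.2 ± 3.18 CPM in TAZKo in normoxia, and 25.1 ± 1.49 and 33.8 ± 1.15 CPM in hypoxia (SD, n = 3 each), and counts per gene do not show whether its transcript is intact. For this reason every genotype difference below is one between libraries labelled TAZKo and libraries labelled WT. Of 10 fibroblast markers 8 passed the filter, Fap had no count in any library, and the summed fibroblast level ran from 10376.4 to 13259.5 CPM over the 12 libraries, while the median marker was at 264.1 CPM in WT and 299.2 CPM in TAZKo in normoxia and at 158.8 and 168.6 CPM in hypoxia. Of 5 epithelial markers 2 passed, and their sum, mostly Krt14, was 219.3 to 279.6 CPM in WT and 98.9 to 108.0 CPM in TAZKo in normoxia, and 198.2 to 207.4 CPM and 130.6 to 137.9 CPM in hypoxia. The sum of 5 blood and macrophage markers, with Adgre1 at 0, was 4.42 to 5.57 CPM in normoxia and 7.99 to 13.8 CPM in hypoxia, that of 5 cartilage and bone markers was 1.32 to 1.99 and 7 to 8.95 CPM, and none of 5 skeletal muscle markers passed. The sum of 5 endothelial markers was 2.72 to 3.85 CPM in WT and 1.43 to 1.76 CPM in TAZKo in normoxia, and 3.05 to 3.9 and 1.17 to 1.6 CPM in hypoxia. For 5 adipocyte markers it was 0.398 to 0.877 CPM in WT and 0.13 to 0.379 CPM in TAZKo in normoxia, and 2.77 to 4.25 and 0.934 to 1.12 CPM in hypoxia. The part of these marker levels in the differences below was not tested. Genes on chromosomes 10, 4 and 18 differed by genotype as whole chromosomes, with median log2 differences of 0.31, 0.13 and -0.22 in normoxia and 0.29, 0.13 and -0.28 in hypoxia. P4ha1 lies on chromosome 10, Plod1 on chromosome 4 and Lox on chromosome 18, and the part of these shifts in the genotype differences of those 3 genes was not tested. WT normoxia sample 1 stood apart from the other libraries on the third principal component, which held 6.1% of the variance. Without it 9 of the 10 genes passed the test for hypoxia in WT in place of 8, and 6 and 8 passed between genotypes in normoxia and hypoxia in place of 5 and 6, while the counts of the 10 genes for hypoxia in TAZKo and for the interaction were the same. The calls over all genes also rose without it. They went from 7355 to 7679 for hypoxia in WT and from 6309 to 7678 for hypoxia in TAZKo. Between genotypes they went from 4384 to 4961 in normoxia and from 4723 to 6149 in hypoxia, and for the interaction from 350 to 556.

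Hypoxia raised 6 of the 10 genes in WT cells and 8 of 10 in libraries labelled TAZKo, and it lowered P4ha3 and Loxl3 in both. The largest increases in both genotypes were those of P4ha2, Loxl2 and Plod2, at 3.95-fold to 6.98-fold. P4ha1, Lox and Loxl1 rose by 1.64-fold to 3.04-fold. Plod1 and Plod3 passed the test in the libraries labelled TAZKo and not in WT. The count of 8 called genes in WT stands against 51.0% of all tested genes called in either direction, with 26.0% called higher and 25.0% lower (edgeR quasi-likelihood test, Benjamini-Hochberg adjusted p under 0.05). For the 10 of 10 called in libraries labelled TAZKo the background was 43.8%, with 22.2% higher and 21.6% lower. The median log2 response of the 10 genes was 0.75 in WT and 0.95 in TAZKo, against 0.01 and -0.01 over all tested genes. Hypoxic and normoxic libraries did not overlap for the same 8 and 10 genes, against 54.6% and 61.1% of all tested genes. In bulk RNA, a change in the share of a kind of cell and a change in RNA per cell cannot be told apart.

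**Figure D1:**
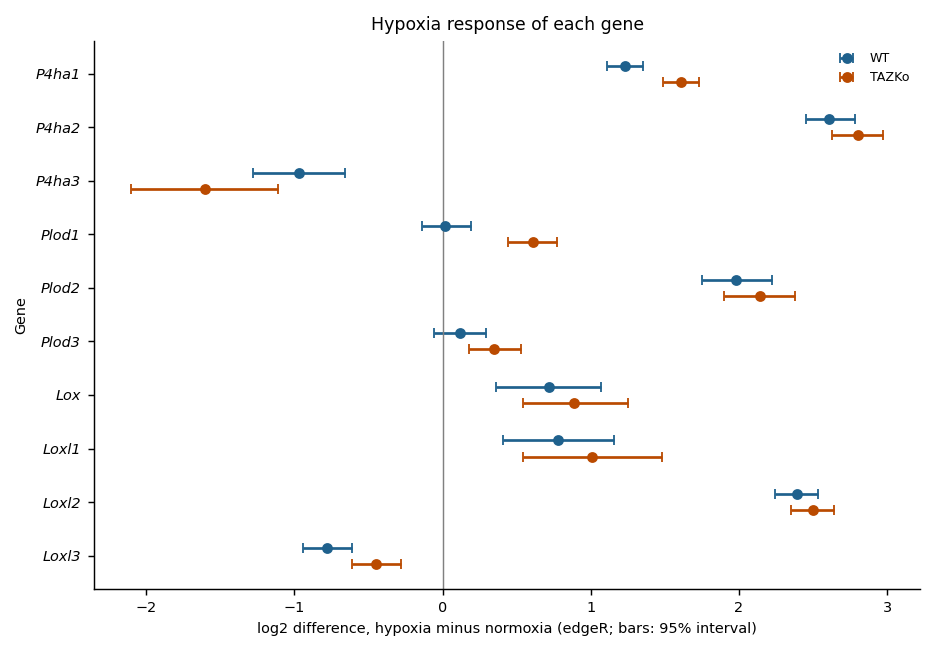
Log2 difference between hypoxia and normoxia for each of the 10 genes in WT and in TAZKo, with bars for the 95% confidence interval of the edgeR fit (3 samples per group). P4ha2, Loxl2 and Plod2 stand farthest to the higher side in both genotypes, P4ha3 and Loxl3 lie on the lower side in both, and Plod1 lies at 0.02 in WT and at 0.61 in TAZKo.

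The prolyl 4-hydroxylase alpha subunits split by direction. P4ha1 (ENSMUSG00000019916, GRCm38 chromosome 10, 59323296 to 59373304, plus strand) encodes the main alpha subunit of most tissues. Its level was 197.1, 193.8 and 203.3 CPM in WT normoxia and 187.0, 190.3 and 191.3 CPM in TAZKo normoxia. In hypoxia it was 476.4, 434.5 and 479.4 CPM in WT and 600.7, 560.6 and 569.9 CPM in TAZKo. Every hypoxic library thus lay above every normoxic one, and the TAZKo hypoxic libraries lay above the WT hypoxic ones with no overlap. The log2 response was 1.23 ± 0.0555 (SE) in WT cells (edgeR adjusted p = 9.35e-10) and 1.61 ± 0.056 in TAZKo cells (edgeR adjusted p = 1.07e-10).

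P4ha2 (ENSMUSG00000018906, GRCm38 chromosome 11, 54100095 to 54131665, plus strand) encodes the second alpha subunit and had the largest response of the 10 genes. WT libraries had 140.6, 123.0 and 119.6 CPM in normoxia and 834.9, 720.3 and 790.5 CPM in hypoxia. Libraries labelled TAZKo had 106.1, 96.1 and 99.6 CPM in normoxia and 733.8, 690.3 and 684.0 CPM in hypoxia. The normoxic and hypoxic ranges were far apart in both genotypes. The increase was 6.12-fold in WT, a log2 difference of 2.61 ± 0.0783 (edgeR adjusted p = 1.82e-11), and 6.98-fold in TAZKo, a log2 difference of 2.80 ± 0.079 (edgeR adjusted p = 1.45e-11).

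P4ha3 (ENSMUSG00000051048, GRCm38 chromosome 7, 100285520 to 100319699, plus strand), the third alpha subunit gene, moved the other way and at a low level. Its counts were 164, 159 and 196 in WT normoxia, 79, 77 and 96 in WT hypoxia, 47, 38 and 41 in TAZKo normoxia and 11, 11 and 19 in TAZKo hypoxia. As CPM the means were 7.11 ± 0.14, 3.63 ± 0.277, 1.63 ± 0.355 and 0.526 ± 0.141 (SD, n = 3). The 4 groups did not overlap. P4ha3 fell by 0.97 ± 0.144 on the log2 scale in WT cells (edgeR adjusted p = 7.98e-05) and by 1.60 ± 0.231 in TAZKo cells (edgeR adjusted p = 8.78e-05).

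Promoter windows of 250 bases before to 50 bases after the annotated start, from RefSeq on GRCm38.p6, were available for 5 of the 10 genes: P4ha1, P4ha2, P4ha3, Plod1 and Plod3. They were searched on both strands for the core of the hypoxia response element, written ACGTG or GCGTG, with overlapping matches counted separately. The windows of P4ha1 (chr10:59323046-59323345), P4ha2 (chr11:54100674-54100973), P4ha3 (chr7:100285270-100285569) and Plod3 (chr5:136986769-136987068), all on the plus strand, are shown 5′ to 3′ because they include the alpha subunit genes that rose and fell and a lysyl hydroxylase gene with a small response. Capitals mark each match, read on either strand.
P4ha1: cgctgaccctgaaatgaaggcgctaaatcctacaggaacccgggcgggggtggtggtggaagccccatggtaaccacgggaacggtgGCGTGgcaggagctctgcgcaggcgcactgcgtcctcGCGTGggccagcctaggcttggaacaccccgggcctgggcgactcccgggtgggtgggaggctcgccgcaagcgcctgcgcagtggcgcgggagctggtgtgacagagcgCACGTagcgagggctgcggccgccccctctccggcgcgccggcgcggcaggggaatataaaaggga
P4ha2: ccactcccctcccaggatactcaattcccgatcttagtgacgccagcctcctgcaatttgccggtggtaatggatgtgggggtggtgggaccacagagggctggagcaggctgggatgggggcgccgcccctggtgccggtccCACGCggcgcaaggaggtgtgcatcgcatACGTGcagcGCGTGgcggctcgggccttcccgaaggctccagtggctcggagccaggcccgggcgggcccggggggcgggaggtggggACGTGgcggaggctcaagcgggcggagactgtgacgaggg
P4ha3: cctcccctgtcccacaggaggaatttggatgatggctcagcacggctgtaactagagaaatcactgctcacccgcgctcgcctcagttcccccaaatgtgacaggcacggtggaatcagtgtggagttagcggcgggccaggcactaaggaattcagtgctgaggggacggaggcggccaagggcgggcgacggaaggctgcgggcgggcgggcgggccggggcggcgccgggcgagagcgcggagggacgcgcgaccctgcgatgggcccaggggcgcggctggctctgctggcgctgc
Plod3: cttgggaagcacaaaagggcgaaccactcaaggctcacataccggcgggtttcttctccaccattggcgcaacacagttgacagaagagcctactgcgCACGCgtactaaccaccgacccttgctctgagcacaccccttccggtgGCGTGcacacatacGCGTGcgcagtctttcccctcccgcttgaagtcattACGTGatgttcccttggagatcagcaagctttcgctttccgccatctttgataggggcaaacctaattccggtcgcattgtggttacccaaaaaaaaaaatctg
The window of P4ha2 held 4 matches, that of P4ha1 held 3 and that of P4ha3 held 0, while Plod3 also held 4 and Plod1 held 2. Of 32851 RefSeq windows of the same length, 43.8% held at least 1 match, 20.6% at least 2, 8.93% at least 3 and 3.86% at least 4. A match is a run of letters and not a measured binding site. P4ha2 at 6.12-fold and Plod3 at 1.09-fold in WT held the same number of matches. No window was available for Plod2, Lox, Loxl1, Loxl2 or Loxl3, and the part of these matches in the responses was not tested.

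Among the lysyl hydroxylases, the hypoxic increase was carried mainly by Plod2 (ENSMUSG00000032374, GRCm38 chromosome 9, 92542223 to 92608428, plus strand), which encodes the enzyme that hydroxylates lysines of the collagen telopeptides. Its levels in normoxia were 92.2, 129.1 and 128.8 CPM in WT and 93.8, 111.6 and 110.2 CPM in TAZKo. After hypoxia they were 455.3, 454.8 and 475.2 CPM in WT and 474.3, 450.9 and 469.1 CPM in TAZKo. Sample 1 was the lowest normoxic library in each genotype, while the 6 hypoxic libraries lay close together. The log2 response was 1.98 ± 0.111 in WT cells (edgeR adjusted p = 7.94e-09) and 2.14 ± 0.111 in TAZKo cells (edgeR adjusted p = 5.69e-09). An antisense gene, Gm38391, overlaps 6.42% of the Plod2 exon bases, and without known strand use its reads cannot be told apart from those of Plod2 there.

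Plod1 (ENSMUSG00000019055, GRCm38 chromosome 4, 147909753 to 147936767, minus strand) encodes the enzyme that hydroxylates lysines in the helical part of collagen. WT libraries had 93.4, 75.9 and 79.6 CPM in normoxia and 87.4, 79.2 and 86.1 CPM in hypoxia, and these ranges overlapped. Libraries labelled TAZKo had 84.7, 82 and 85.4 CPM in normoxia and 132.8, 130.4 and 120.8 CPM in hypoxia, with no overlap. The WT difference was 0.02 on the log2 scale (95% confidence interval -0.14 to 0.19, edgeR adjusted p = 0.832), and its sign depended on the scaling used. In TAZKo the log2 response was 0.61 ± 0.0763 (edgeR adjusted p = 2.80e-05).

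Plod3 (ENSMUSG00000004846, GRCm38 chromosome 5, 136987019 to 136996648, plus strand) encodes a lysyl hydroxylase that also transfers sugars to hydroxylysine. It measured 204.0, 168.9 and 170.8 CPM in WT normoxia and 214.1, 181.8 and 194.7 CPM in WT hypoxia, which overlapped. TAZKo libraries measured 170.0, 171.8 and 161.4 CPM in normoxia and 226.1, 209.4 and 207.7 CPM in hypoxia, which did not. The WT difference of 0.12 (95% confidence interval -0.06 to 0.29) missed the threshold with an edgeR adjusted p of 0.238. Without WT normoxia sample 1 it was 0.21 with an edgeR adjusted p of 0.0144. In TAZKo the log2 response was 0.35 ± 0.0806 (edgeR adjusted p = 0.00287). Exons of Mir702 and of the antisense gene Znhit1 overlap 11.9% of the Plod3 exon bases.

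Lox (ENSMUSG00000024529, GRCm38 chromosome 18, 52516067 to 52529867, minus strand), the founding lysyl oxidase, was the most abundant of the 10 genes per kb of exon in all 12 libraries. Its levels were 752.3, 1109.8 and 1215.5 CPM in WT normoxia and 544.4, 745.7 and 859.4 CPM in TAZKo normoxia. They were 1642.8, 1760.2 and 1651.2 CPM in WT hypoxia and 1308.4, 1379.5 and 1307.2 CPM in TAZKo hypoxia. As with Plod2, sample 1 was the lowest normoxic library of each genotype, and the normoxic spread was wider than the hypoxic one. Within each genotype the hypoxic libraries lay above the normoxic ones. Lox rose by 0.72 ± 0.163 on the log2 scale in WT cells (edgeR adjusted p = 0.00228) and by 0.89 ± 0.163 in TAZKo cells (edgeR adjusted p = 0.000603).

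Loxl2 (ENSMUSG00000034205, GRCm38 chromosome 14, 69609068 to 69695834, plus strand), a lysyl oxidase-like enzyme with scavenger receptor domains that acts on basement membrane collagen, rose most in the family. It measured 114.7, 126.2 and 132.9 CPM in WT normoxia and 655.6, 626.3 and 673.6 CPM in WT hypoxia. Libraries labelled TAZKo measured 96.6, 95.3 and 101.3 CPM in normoxia and 547.4, 576.3 and 531.4 CPM in hypoxia. No group overlapped another. The increase was 5.23-fold in WT, a log2 difference of 2.39 ± 0.0659 (edgeR adjusted p = 7.86e-12), and 5.64-fold in TAZKo, a log2 difference of 2.50 ± 0.0662 (edgeR adjusted p = 7.72e-12). Loxl2 shared 45.8% of the 50-base words of its longest coding transcript with other annotated genes, 43.6% with the copy Gm21451, which had no count in any library. How the authors' counting placed or dropped such reads is not known, so the level of Loxl2 is uncertain.

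Loxl1 and Loxl3 were minor members that moved in opposite directions. Loxl1 (ENSMUSG00000032334, GRCm38 chromosome 9, 58287738 to 58313186, minus strand), known for its part in elastic fibres, was detected by only 14 to 88 counts per library. Normoxic libraries had 41, 30 and 44 counts in WT and 15, 14 and 22 in TAZKo. Hypoxic libraries had 51, 52 and 88 counts in WT and 24, 37 and 41 in TAZKo. As CPM the group means were 1.57 ± 0.249, 0.639 ± 0.0373, 2.7 ± 0.452 and 1.29 ± 0.132 in that order, and within each genotype the hypoxic libraries were higher without overlap. The log2 response was 0.78 ± 0.172 in WT cells (edgeR adjusted p = 0.00178) and 1.01 ± 0.217 in TAZKo cells (edgeR adjusted p = 0.0019).

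Loxl3 (ENSMUSG00000000693, GRCm38 chromosome 6, 83034173 to 83052562, plus strand), another lysyl oxidase-like enzyme with scavenger receptor domains, fell. WT libraries went from 53.4, 46.4 and 47.1 CPM in normoxia to 31.6, 26.6 and 27.6 CPM in hypoxia. In TAZKo it measured 51.1, 49.3 and 50.8 CPM in normoxia and 36.6, 36 and 38.3 CPM in hypoxia. The hypoxic libraries of each genotype lay below the normoxic ones, and the WT hypoxic libraries were the lowest of the 12. Loxl3 fell by 0.78 ± 0.0768 on the log2 scale in WT cells (edgeR adjusted p = 1.99e-06) and by 0.45 ± 0.0753 in TAZKo cells (edgeR adjusted p = 0.00032). The antisense gene Htra2 overlaps 11.6% of the Loxl3 exon bases.

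**Figure D2:**
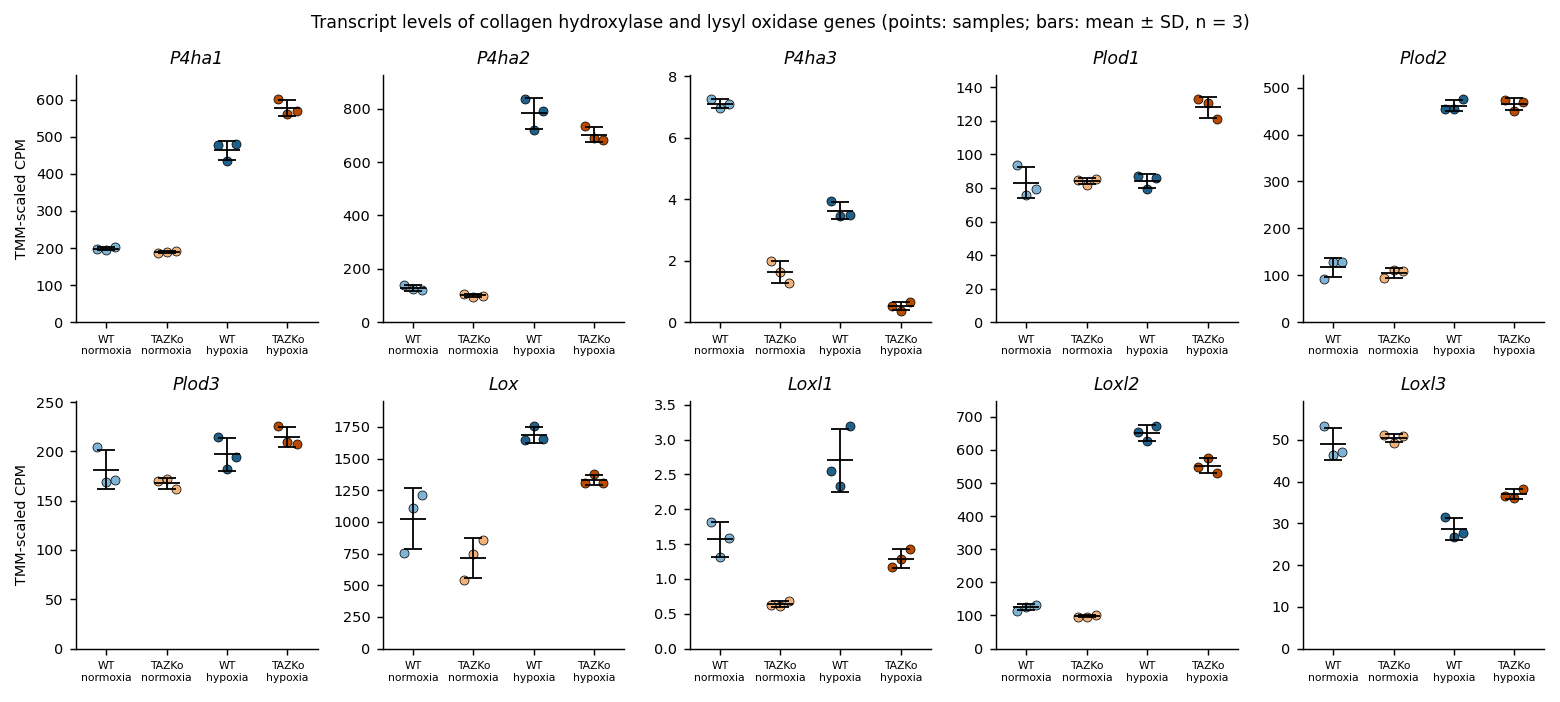
TMM-scaled CPM of each of the 10 genes in the 12 libraries, 1 panel per gene with its own linear axis from 0; points are libraries and bars are the mean and SD of 3 libraries. P4ha1, P4ha2, Plod2, Lox and Loxl2 are high in both hypoxic groups, P4ha3 and Loxl3 are low there, and Plod1 is high in TAZKo hypoxia alone.

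With hypoxia the shares of the genes within each family shifted, and the leading gene changed in both genotypes for the Plod family. Per kb of exon, the summed P4ha level went from 70.9 ± 1.85 to 239.1 ± 15 CPM per kb in WT and from 62.7 ± 0.48 to 253.1 ± 9.32 CPM per kb in TAZKo (SD, n = 3). P4ha1 made up 67.9% ± 1.96 of this sum in WT normoxia and 47.1% ± 0.843 in WT hypoxia, while P4ha2 went from 28.9% ± 1.97 to 52.4% ± 0.826. In the libraries labelled TAZKo P4ha2 went from 25.7% ± 1.12 to 44.5% ± 0.332, so that P4ha1 stayed the larger share at 55.4% ± 0.314 in hypoxia. P4ha2 thus lay above P4ha1 per kb in WT hypoxia as a share of the sum, and below it in TAZKo hypoxia. P4ha3 fell from 3.2% to 0.485% of the sum in WT and from 0.829% to 0.0663% in TAZKo.

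Hypoxia took the Plod sum from 74 ± 1.82 to 141.6 ± 4.67 CPM per kb in WT, and from 69 ± 1.65 to 152.6 ± 4.46 CPM per kb in TAZKo. Plod3 led in normoxia with 54.1% ± 4.54 of the sum in WT and 53.8% ± 1.88 in TAZKo. Plod2 led in hypoxia, going from 29.3% ± 5.94 to 60.5% ± 1.89 in WT and from 28.2% ± 2.15 to 56.5% ± 1.02 in TAZKo. In the lysyl oxidase family Lox stayed first, but its share of the summed level went from 85.9% ± 2.92 to 73.4% ± 1.45 with hypoxia in WT and from 83.3% ± 3.23 to 71.6% ± 0.234 in TAZKo. Loxl2 went from 9.46% ± 1.44 to 25.1% ± 1.33 in WT and from 10.3% ± 1.9 to 26.2% ± 0.339 in TAZKo. Its uncertain counting applies to these shares too.

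**Figure D3:**
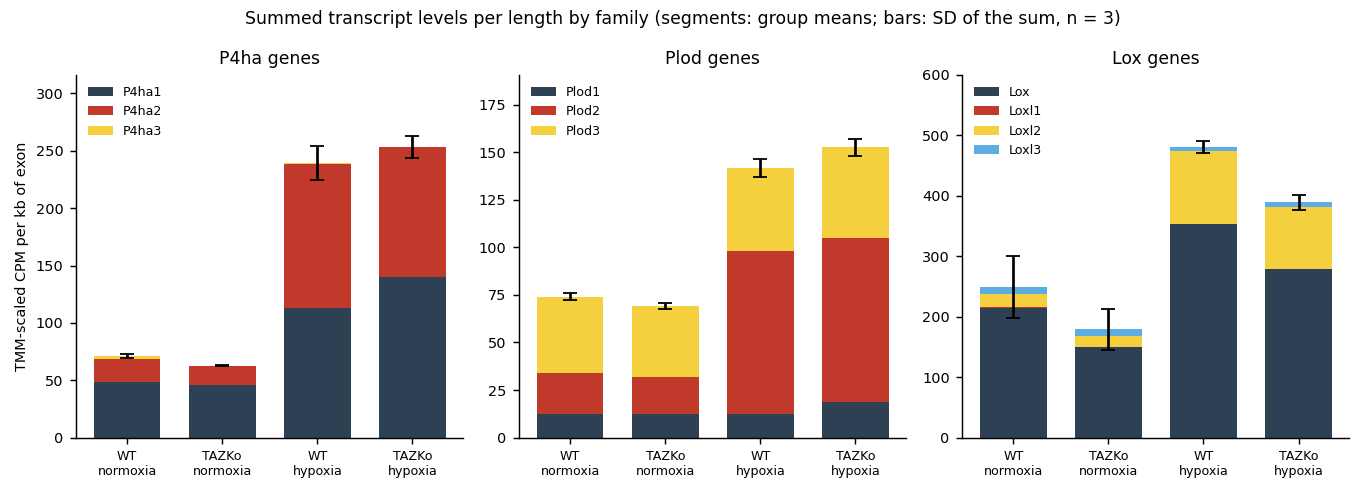
Stacked bars of CPM per kb of exon in each group, with 1 panel each for the P4ha, Plod and Lox families; segments are group means of the genes and the black bars are the SD of the sum over 3 libraries. Hypoxia raises the P4ha sum from 70.9 to 239.1 CPM per kb in WT, with P4ha2 as the segment that grows most, and Plod2 and Loxl2 grow in their own panels.

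Ratios between genes of a family were also taken in each library, as log2 of CPM over CPM without division by length, so that their differences between groups do not depend on exon length. The log2 ratio of P4ha2 to P4ha1 was -0.49, -0.66 and -0.77 in WT normoxia and 0.81, 0.73 and 0.72 in WT hypoxia. In TAZKo it was -0.82, -0.98 and -0.94 in normoxia and 0.29, 0.30 and 0.26 in hypoxia. The ratio was lower in TAZKo than in WT without overlap in both conditions, by 0.28 in normoxia and 0.47 in hypoxia. Plod2 to Plod1 rose by 1.97 in WT and 1.54 in TAZKo, and Loxl2 to Lox by 1.64 and 1.58. Of 20 such comparisons (5 ratios in 4 contrasts), those without overlap gave an exact two-sided permutation p of 0.1, adjusted to 0.143, and 0.1 is the smallest p that 3 against 3 libraries allow. These ratio differences therefore cannot pass a threshold of 0.05.

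The order of the 10 genes per kb also moved. In WT normoxia it was Lox, P4ha1, Plod3, Loxl2, Plod2, P4ha2, Plod1, Loxl3, P4ha3 and Loxl1, from 214.7 ± 50.8 down to 0.478 ± 0.0756 CPM per kb. Loxl2, Plod2 and P4ha2 overlapped their neighbours there, as did Plod1 and Loxl3. In WT hypoxia the order was Lox, P4ha2, Loxl2, P4ha1, Plod2, Plod3, Plod1, Loxl3, P4ha3 and Loxl1, with P4ha2, Loxl2 and P4ha1 overlapping. TAZKo hypoxia had P4ha1 in place 2 at 140.3 ± 5.1 CPM per kb, ahead of P4ha2 at 112.6 ± 4.35, and P4ha3 in the last place at 0.168 ± 0.045. Neighbours in that group did not overlap.

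Between genotypes, 5 of the 10 genes were lower in TAZKo than in WT in normoxia and none was higher by the edgeR test, with the labels taken as given. None was higher at an unadjusted p under 0.05 or by DESeq2 either. P4ha3 was lower by the largest factor, 4.42-fold, followed by Loxl1 at 2.44-fold. Lox was 1.43-fold lower, and P4ha2 and Loxl2 were each 1.27-fold lower. The background was 30.4% of tested genes called in either direction, 15.6% higher and 14.9% lower. The median log2 difference of the 10 genes was -0.25, against 0.01 over all tested genes. These genotype differences share the WT and TAZKo normoxic libraries with the hypoxia responses given above and are not independent of them.

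The normoxic log2 differences were -2.14 ± 0.158 for P4ha3 (edgeR adjusted p = 3.30e-07), -1.29 ± 0.212 for Loxl1 (edgeR adjusted p = 0.000447), -0.35 ± 0.0636 for Loxl2 (edgeR adjusted p = 0.000919) and -0.34 ± 0.0749 for P4ha2 (edgeR adjusted p = 0.00334). The libraries of the genotypes did not overlap for these 4 genes, nor for P4ha1, whereas 42.8% of tested genes did not overlap. Lox gave -0.52 ± 0.163 (edgeR adjusted p = 0.0273), but its libraries overlapped. Within same-numbered pairs TAZKo was lower each time (544.4 against 752.3, 745.7 against 1109.8 and 859.4 against 1215.5 CPM), and the fit with the replicate block gave -0.52 with an edgeR adjusted p of 0.00399. In fits without the block the Lox call was lost without WT normoxia sample 2 (edgeR adjusted p = 0.0668), without WT normoxia sample 3 (0.0876), without TAZKo normoxia sample 1 (0.082) and in a fit of the 6 normoxic libraries alone (0.111). Plod2 at -0.15 (95% confidence interval -0.38 to 0.08, edgeR adjusted p = 0.326) missed the threshold with all libraries and passed it at -0.29 without WT normoxia sample 1 (edgeR adjusted p = 0.00305). P4ha1, Plod1, Plod3 and Loxl3 lay between -0.11 and 0.04 and did not pass.

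In hypoxia 3 genes were higher in TAZKo and 3 were lower. Plod1, Loxl3 and P4ha1 were higher, by 1.52-fold, 1.30-fold and 1.25-fold, and P4ha3, Loxl1 and Loxl2 were lower, by 6.85-fold, 2.08-fold and 1.18-fold. The background was 32.8% of tested genes called, 15.8% higher and 16.9% lower, and the median log2 difference of the 10 genes was -0.07 against -0.01 over all tested genes. The log2 differences were 0.60 ± 0.0764 for Plod1 (edgeR adjusted p = 4.73e-05), 0.37 ± 0.0771 for Loxl3 (edgeR adjusted p = 0.00217) and 0.32 ± 0.0545 for P4ha1 (edgeR adjusted p = 0.000591). They were -2.78 ± 0.207 for P4ha3 (edgeR adjusted p = 3.94e-07), -1.06 ± 0.175 for Loxl1 (edgeR adjusted p = 0.000433) and -0.24 ± 0.0623 for Loxl2 (edgeR adjusted p = 0.00913). The libraries of the genotypes did not overlap for these 6 genes and for Lox, as was so for 7207 of the 14408 tested genes.

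The other 4 genes missed the threshold in hypoxia. Lox was at -0.34 ± 0.162 (edgeR adjusted p = 0.13) although its libraries did not overlap, and it passed without WT normoxia sample 1 (edgeR adjusted p = 0.0239) and in a fit of the 6 hypoxic libraries alone (0.000692). P4ha2 was at -0.15 (95% confidence interval -0.31 to 0.00, edgeR adjusted p = 0.129) and passed without WT normoxia sample 1 (0.0398). Plod3 was at 0.12 (interval -0.05 to 0.30). Plod2 had nearly the same mean in both genotypes, 461.8 ± 11.7 CPM in WT and 464.8 ± 12.3 CPM in TAZKo, a log2 difference of 0.01 with a 95% confidence interval of -0.22 to 0.24.

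**Figure D4:**
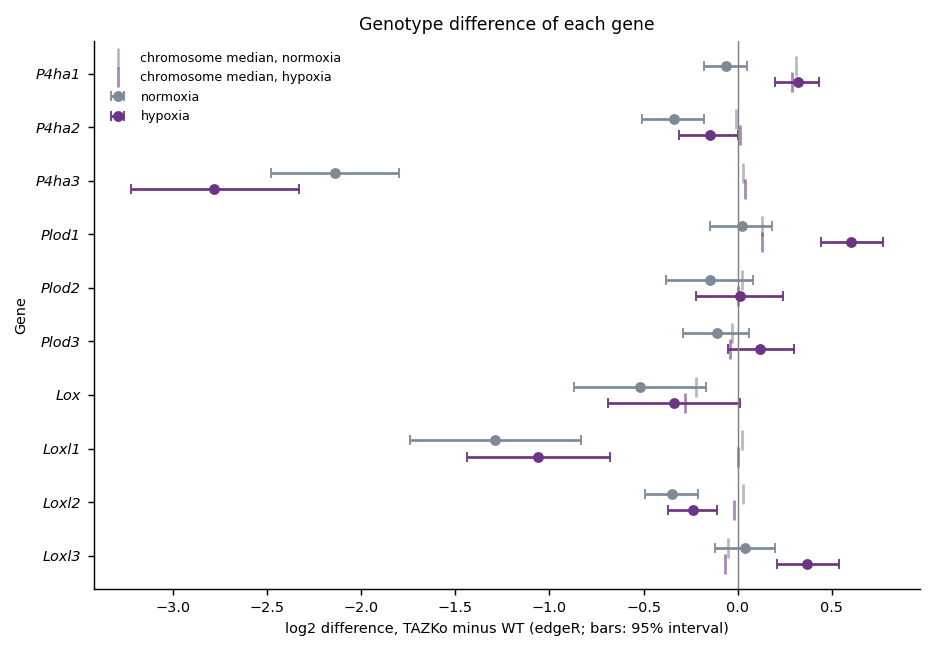
Log2 difference between libraries labelled TAZKo and WT for each of the 10 genes in normoxia and in hypoxia, with bars for the 95% confidence interval of the edgeR fit (3 samples per group). P4ha3 and Loxl1 lie far on the lower side in both conditions, and P4ha1, Plod1 and Loxl3 lie near 0 in normoxia and on the higher side in hypoxia.

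How far the response to hypoxia differed by genotype was tested as the interaction in the same fit. It passed the threshold for 2 of the 10 genes, both with a larger response in TAZKo. The background was 2.43% of tested genes called, 0.722% in that direction and 1.71% in the other. For Plod1 the interaction was 0.58 ± 0.108 on the log2 scale (95% confidence interval 0.35 to 0.82, edgeR adjusted p = 0.012), as its level was near 84 CPM in 3 groups and 128.0 ± 6.34 CPM in TAZKo hypoxia. For P4ha1 it was 0.38 ± 0.0774 (interval 0.21 to 0.55, edgeR adjusted p = 0.02). Neither call was lost when any library was left out in turn. The whole-chromosome shifts by genotype were the same in both conditions to within 0.02 for chromosomes 10 and 4, and the chromosome medians of the interaction were -0.03 and -0.00.

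For the other 8 genes the responses were not shown to differ. Loxl3 fell by less in TAZKo, with an interaction of 0.33 ± 0.107 (edgeR adjusted p = 0.142), which passed at 0.43 without WT hypoxia sample 1 (edgeR adjusted p = 0.0263). P4ha3 had -0.63 (95% confidence interval -1.23 to -0.04, edgeR adjusted p = 0.283). The 3 genes with the largest responses had interactions of 0.19 for P4ha2 (interval -0.04 to 0.42), 0.16 for Plod2 (-0.17 to 0.49) and 0.11 for Loxl2 (-0.08 to 0.30). Plod3 had 0.24, Loxl1 0.23 and Lox 0.18, each with an interval that included 0.

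The libraries had been run in lanes 4 and 5, and each lane held libraries of both groups in each pairwise contrast. Oxygen was not balanced over the lanes. In each genotype lane 4 held 1 hypoxic and 2 normoxic libraries, and lane 5 held 2 hypoxic and 1 normoxic. All 58 within-lane values of the 29 called pairwise differences kept the sign of the pooled value. Apart from Lox between genotypes in normoxia, the libraries compared did not overlap for any of these differences. Their sign within a lane was therefore fixed in advance, and this check could not fail for them. The Lox difference was -0.52 in lane 4 and -0.50 in lane 5. For P4ha1 in WT the response was 1.28 in lane 4 and 1.17 in lane 5. Each lane held 1 or 2 libraries of a group, so no test was made within a lane.

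Genes with the profile most like that of each family's strongest responder were found by Pearson correlation of log2 CPM over the 12 libraries, given as a description because the libraries share 4 groups. For P4ha2 these were Fam162a, Slc2a1 and Pgm1, each with r = 0.999. Slc2a1, which encodes a glucose transporter, rose by 2.41 on the log2 scale in WT and 2.46 in TAZKo. For Plod2 they were Bnip3l (r = 0.996), Alkbh5 (0.995) and Ak4 (0.995). Bnip3l, a mitophagy receptor gene, rose by 2.23 in WT and 2.17 in TAZKo, close to the 1.98 and 2.14 of Plod2. For Loxl2 they were Car12 (r = 0.999), Mboat2 (0.998) and Kdm3a (0.998). Car12, a carbonic anhydrase gene, rose by 3.89 and 3.93 in WT and TAZKo and was lower in TAZKo by 0.57 in normoxia and 0.53 in hypoxia.

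Genes that work beside these enzymes moved in both directions. A list of 25 partners held the shared beta subunit, collagen chaperones, prolyl 3-hydroxylases, procollagen proteinases and Loxl4, of which 23 were tested. In WT hypoxia 5 of the 23 rose and 12 fell (median log2 -0.19), and in TAZKo 5 rose and 8 fell (median -0.01). These are 73.9% and 56.5% of the tested partners, against 51.0% and 43.8% of all tested genes. P4hb, the beta subunit that completes the P4ha enzymes, rose by 0.93 ± 0.0541 in WT cells (edgeR adjusted p = 1.10e-08) and 0.96 ± 0.0542 in TAZKo cells (edgeR adjusted p = 1.30e-08). Serpinh1, the collagen chaperone HSP47, fell by 0.61 ± 0.0684 in WT cells (edgeR adjusted p = 6.32e-06) and by 0.48 ± 0.0683 in TAZKo cells (edgeR adjusted p = 8.12e-05). P4hb and Serpinh1 were chosen for mention after their values were seen. Adamts14, a procollagen N-proteinase gene on chromosome 10, fell by 1.25 in WT and 1.24 in TAZKo (edgeR adjusted p = 1.35e-07 and 1.41e-07).

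Between genotypes, 6 partners were higher and 3 lower in TAZKo in normoxia (median 0.02), and 10 were higher and 4 lower in hypoxia (median 0.10), which is 39.1% and 60.9% called against 30.4% and 32.8% of all tested genes. The largest of these differences was that of Loxl4, a further lysyl oxidase gene outside the 10. Its level was 11.6 ± 0.26 CPM in WT and 44.5 ± 0.345 CPM in TAZKo in normoxia, and 20.1 ± 2.43 and 82.5 ± 4.29 CPM in hypoxia. Loxl4 was thus higher in TAZKo on the log2 scale by 1.94 ± 0.0829 in normoxia (edgeR adjusted p = 2.10e-09) and by 2.03 ± 0.0796 in hypoxic libraries (edgeR adjusted p = 9.69e-10), opposite in direction to Lox, Loxl1 and Loxl2, while its chromosome 19 had medians of -0.27 and -0.28. Adamts3, a second procollagen N-proteinase gene, was lower in TAZKo by 1.51 in normoxia and 0.86 in hypoxia (edgeR adjusted p = 7.24e-07 and 0.000113). No partner passed the edgeR test of the interaction, against 350 of all 14408 tested genes. An unadjusted p under 0.05 was reached by 5 of the 23, against 2273 of the 14408. DESeq2 called 1 partner, Adamts3, against 574 of the 14408.

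The substrate list held 17 fibrillar collagen, elastic fibre and matrix genes, of which 15 were tested. Fn1, Postn, Efemp2, Fbln5 and Fbn1 on it encode neither a collagen chain nor elastin, so the list is wider than the substrates of the enzymes. Of those tested, 8 rose and 4 fell in WT hypoxia (median 0.35). In TAZKo hypoxia 4 rose and 2 fell (median 0.19). Thus 80% of the tested genes on the list were called in WT and 40% in TAZKo, against 51.0% and 43.8% of all tested genes. Between genotypes 3 were higher and 5 lower in TAZKo in normoxia (median -0.18), and 3 were higher and 6 lower in hypoxia (median -0.30), or 53.3% and 60% called against 30.4% and 32.8%. Elastin, with 0 counts in a group, is among those lower in each of these counts, and without it the 4 medians were 0.36, 0.20, -0.12 and -0.23. Col1a1, the alpha 1 chain of collagen I and a main substrate of these enzymes, was at 2834.9 ± 402.2 CPM in WT and 1153.2 ± 14.3 CPM in TAZKo in normoxia. In hypoxia it was at 3605.3 ± 475.3 and 1376.1 ± 55.8 CPM. Col1a1 was lower in TAZKo by 1.30 ± 0.1 and 1.39 ± 0.101 on the log2 scale (edgeR adjusted p = 5.34e-07 and, for hypoxia, 3.06e-07).

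Col1a2, the alpha 2 chain that pairs with it in collagen I, was far below Col1a1, at 5.33 ± 0.595 CPM in WT normoxia. It was lower in TAZKo by 1.33 in normoxia (edgeR adjusted p = 3.61e-05) and by 0.63 in hypoxic libraries (edgeR adjusted p = 0.00859). Fbn1, which encodes fibrillin-1 of the microfibrils, had 18.3, 17.5 and 16.8 CPM in WT and 3.41, 3.42 and 3.34 CPM in TAZKo in normoxia. In hypoxia it had 36.8, 38.4 and 38.5 CPM in WT and 14.4, 14.5 and 13.2 CPM in TAZKo. Its 4 groups did not overlap. Fbn1 rose by 1.11 in WT and 2.05 in TAZKo, an interaction of 0.94 ± 0.105 (edgeR adjusted p = 0.000491).

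Eln, the elastin gene and a classic substrate of Lox and Loxl1, had 27, 29 and 34 counts in WT normoxia. The TAZKo normoxic libraries had 1, 4 and 2 counts, the WT hypoxic libraries had 2, 2 and 4, and each TAZKo hypoxic library had 0. Most of these counts are under the floor of 3 counts, so no fold is given. Fbln5, an elastic fibre gene that was also low, had 12 to 24 counts per library in WT hypoxia and 4 to 8 in TAZKo hypoxia. On these few counts it was lower in TAZKo hypoxia by 1.72 ± 0.358 (edgeR adjusted p = 0.00231). Col2a1, a cartilage collagen chain, rose by 1.62 ± 0.365 in WT and 2.18 ± 0.413 in TAZKo (edgeR adjusted p = 0.0021 and 0.000791), from 0.507 ± 0.0199 and 0.258 ± 0.157 CPM in normoxia. Its normoxic libraries held only 11 to 14 counts in WT and 3 to 14 in TAZKo.

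A list of 14 genes, called the supply list, held iron, copper and ascorbate supply genes and enzymes that make or use 2-oxoglutarate or succinate. Ogdh, Sdha and Sdhb on it use 2-oxoglutarate or succinate and do not supply a cofactor. In WT hypoxia 6 of the 14 rose and 5 fell (median 0.19), and in TAZKo hypoxia 5 rose and 4 fell (median 0.14). These are 78.6% and 64.3% called, against 51.0% and 43.8% of all tested genes. Tfrc, the transferrin receptor through which cells take up iron, rose by 1.78 ± 0.17 in WT and 1.92 ± 0.171 in TAZKo (edgeR adjusted p = 1.48e-06 and 1.23e-06). Idh1, the cytosolic enzyme that makes 2-oxoglutarate from isocitrate, rose by 1.38 ± 0.0629 in WT and by 0.86 ± 0.0626 in TAZKo. Its interaction was -0.52 ± 0.0878 (edgeR adjusted p = 0.00646), opposite in sign to those of P4ha1 and Plod1. Between genotypes 3 of the 14 were higher and 2 lower in TAZKo in normoxia, and 3 were higher and 4 lower in hypoxia, or 35.7% and 50% called against 30.4% and 32.8%.

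**Figure D5:**
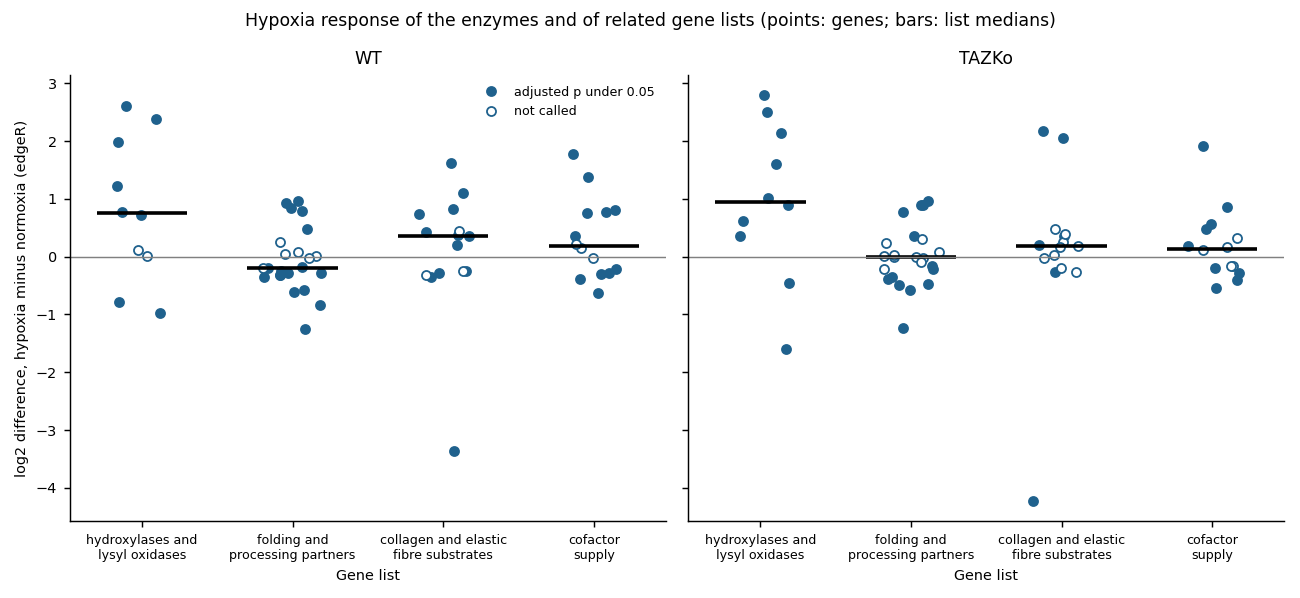
Log2 difference between hypoxia and normoxia in WT (left panel) and TAZKo (right panel), with 1 column each for the 10 enzymes and the partner, substrate and supply lists; points are tested genes, filled where the adjusted p was under 0.05, and bars are list medians. The enzyme column has medians of 0.75 and 0.95 and the partner column -0.19 and -0.01, and the lowest substrate point in each panel is Eln, whose fitted value rests on counts of 0 to 4 in hypoxia and is no measure of its change.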

How the data were processed

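RNA was extracted with Trizol and made into Illumina TruSeq v2 libraries, per the labels' protocols. The authors deposited 1 table of whole-number read counts per Ensembl gene for each of 12 libraries, with genome build mm10 per the submitters' processing notes. The aligner, the counting program and its use of strand and of reads matching several genes are not given in the sources used here. Of 48709 IDs, 48349 matched a symbol in GENCODE M21, which gave GRCm38 coordinates and exon lengths by ID. The filter filterByExpr of edgeR 4.0.16, applied to the 4 groups, kept 14408 genes. TMM scaling and the edgeR quasi-likelihood fit (limma 3.58.1, R 4.3.3) used all 12 libraries with 1 coefficient per group. P-values were adjusted by Benjamini-Hochberg over all tested genes in a contrast, threshold 0.05. The SE is the log2 difference divided by the root of F. On simulated data the script found 93% of genes changed 2-fold and 67% of genes changed 1.5-fold in a simulated hypoxia contrast of WT over 14115 genes. It made 8 false calls. Only 100 genes were changed by each factor, and every simulated gene had the same spread beyond counting error. These rates therefore do not carry over to genes with a wider spread, such as Lox. They are also averages over genes of all levels and do not give the rate for a gene with few counts, such as Loxl1. Total counts of 21039451 to 31204510 set the floors in CPM, and floors cover counting error alone, because the reads carry no molecular identifiers and may stem from the same molecule.

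The 10 enzymes were named in every contrast. Of the partner, substrate and supply lists, genes called with a log2 difference of at least 1 in a pairwise contrast, or called in the interaction, were named. These members and lists were chosen with earlier results of these data known. Alternatives were DESeq2 1.42.0 as the test, other scalings, other filters, a prior count of 0.5, the replicate block, the 6 samples of a contrast alone and leaving out each library. Lane, read from the names of the deposited count tables, was also tried as a covariate, and within-lane values were added after seeing the data. Titles number the libraries 1 to 3 in each group without saying what a number marks. Deviations from group means correlated at 0.152 to 0.368 between same-numbered libraries of the WT groups and at 0.149 to 0.354 between those of the normoxic groups, all above 0.1, and at -0.024 to 0.121 in the other 2 pairwise contrasts. Different-numbered libraries correlated at -0.28 to 0.18 between the WT groups and at -0.293 to 0.116 between the normoxic groups. There 5 of 6 and 6 of 6 libraries correlated best with their own number. The numbers were therefore taken as a possible pairing in the first 2 contrasts, which these correlations do not establish. The values given are from the fit without the block unless stated, and the block changed no call of the 10 enzymes in those 2 contrasts.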

Additional observations from a re-analysis of the deposited data

Results flagged for a closer look

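In each of 4 genes the hypoxia responses of the genotypes differed by the interaction test of the edgeR fit. These were 2 of the 10 enzymes, 1 of 15 tested genes on the substrate list and 1 of 14 on the supply list. Of the 23 tested partners 0 passed, and over all tested genes 2.43% did. The interaction was 0.38 on the log2 scale for P4ha1 and 0.58 for Plod1, both with the larger response in libraries labelled TAZKo. It was 0.94 for Fbn1, again larger in TAZKo, and -0.52 for Idh1, with the smaller response in TAZKo. The edgeR adjusted p-values were 0.02, 0.012, 0.000491 and 0.00646 in that order. The hypoxic libraries of the genotypes did not overlap for any of the 4 genes, as was so for 7207 of the 14408 tested genes. Such separation in hypoxia alone does not test the interaction. Taz counts were not reduced in the libraries labelled TAZKo, which bears on the meaning of these genotype labels.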

How the results depend on the processing

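Of 1030 values of the 10 enzymes under alternative settings, 984 kept their direction and their side of the threshold. With a mean of at least 5 CPM required, 3 enzymes were called between genotypes in normoxia in place of 5, since P4ha3 and Loxl1 were then not tested. Over all genes, 350 were called in the interaction, against 727 with no filter, 639 with the replicate block, 574 with DESeq2 and 174 to 711 with a library left out. In hypoxia between genotypes, where the numbers were not taken as pairs and 3 of 6 libraries correlated best with their own number, the block raised the called enzymes from 6 to 8, with an edgeR adjusted p of 0.0317 for P4ha2 and 0.0362 for Lox. Over all tested genes the block raised the calls in this contrast from 4723 to 5518. Values that turned sign were uncalled and near 0. For Plod1 in WT hypoxia these were -0.04 with upper quartile scaling, -0.09 with library size alone, -0.05 with no filter, -0.03 with 6 samples and -0.09 to 0.11 with a library left out. For Plod1 between genotypes in normoxia they were -0.001 with upper quartile scaling, -0.01 with no filter and -0.07 to 0.11 with a library left out. Leaving out a library also gave -0.01 to 0.02 for Plod2 between genotypes in hypoxia, -0.03 to 0.11 for Loxl3 in normoxia, and, for the log2 ratios in normoxia, -0.28 to 0.10 for Plod2 to Plod3 and -0.01 to 0.32 for Loxl2 to Lox. The cause was not tested. Library size alone moved the all-gene median of the hypoxia response by -0.106 in WT and -0.094 in TAZKo, and split the calls into 2966 higher and 4817 lower in WT and 2470 and 4393 in TAZKo, against 3750 and 3605, and 3198 and 3111, with TMM. P4ha3 and Loxl1 are limited by their depth of 11 to 196 and 14 to 88 counts per library.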
